A study of Mus musculus with 18 samples.

Results

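Ibrutinib was made as an irreversible inhibitor of BTK, and it also binds related kinases that carry a cysteine at the matching place beside the ATP pocket. The 5 genes described here encode such kinases: *Txk*, *Tec*, *Btk* and *Bmx* of the Tec family, and *Blk* of the Src family. They were picked by gene symbol, as named targets of the drug and not by a threshold on their values, and they are 5 of the 45706 genes listed for every library. For TXK, which it calls RLK, the study states that ibrutinib does not block the kinase efficiently. Of these 5, 3 (*Txk*, *Tec* and *Blk*) passed the filter on low counts that left 12255 genes for testing, and *Btk* and *Bmx* did not.

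Tec family kinases act just below antigen receptors. A Src family kinase phosphorylates them, most of them are drawn to the membrane when their PH domain binds the lipid PIP3, and they in turn phosphorylate phospholipase C gamma, which starts calcium and diacylglycerol signals. TXK differs from the others in that it has a string of cysteines in place of a PH domain, and it is known from T cells. TEC is made in many blood cells, BTK is known for its part in B cell receptor signalling and is also made in myeloid cells, BMX is made in endothelial and myeloid cells, and BLK is the Src family kinase best known from B cells.

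The cells were CD8+ T cells of OT-I mice, a line whose T cell receptor recognizes an OVA peptide, and all were cultured with IL-7 and IL-15. Repeat peptide stimulated cells received the peptide daily until day 5, which is the *in vitro* exhaustion culture of the study, whereas single peptide stimulated cells met it once and were then washed. From day 5 to day 8 both received 1 µM ibrutinib or its solvent DMSO. Per the study's methods, peptide stayed in the medium of the repeat peptide cells during the ibrutinib treatment, whereas the single peptide cells were without it, so the stimulations also differed in peptide during those days. For the DMSO arm this is not stated separately. RNA-seq of polyadenylated RNA gave 4 libraries of repeat peptide cells with DMSO, 5 of repeat peptide cells with ibrutinib, 5 of single peptide cells with DMSO and 4 of single peptide cells with ibrutinib. The cultures came from 6 experiments, lettered A to F here. Each of experiments A to D is represented in all 4 groups, while E gave only a repeat peptide library with ibrutinib and F only a single peptide library with DMSO. The strain entry of all 18 libraries is OT-1 wild type, but the genotype entry of experiments B, C, D and E names a btk knockout. The study put OT-I cells without *Btk* through the same culture and treatment for flow cytometry, but describes none for this RNA-seq experiment. That entry was therefore taken to name the experiment. Whether any of these libraries came from cells without *Btk* was not tested. The age of the mice is not given in the sources used here.

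The total expected count ranged from 23445922 to 51995372 per library, with a median of 27420966. The summed level of 8 CD8+ T cell markers lay between 2759 and 3794 TPM (a level corrected for transcript length and library size) in every library. Of the other cell types that make these kinases, 8 B cell markers summed to 1.45 to 8.07 TPM and 8 myeloid markers to 0.63 to 9.59 TPM. The defining B cell gene *Cd79a* had at most 7 counts in any library, and the sum came mostly from *Cd79b* and *Cd22*. The 5 endothelial markers summed to 28.8 to 72.2 TPM, nearly all of it *Pecam1*, and *Cdh5* had at most 6 counts. Of 5 mast cell or basophil markers, which summed to 1.57 to 31.0 TPM, *Kit* had a mean of 20.4 TPM in repeat peptide cells with DMSO against 4.02 TPM in single peptide cells with DMSO. The defining genes *Fcer1a* and *Ms4a2* had 18 counts each in 1 library, the repeat ibrutinib library of experiment E, where *Kit* was at 7.85 TPM, and at most 2 counts in the others. The 4 NK cell markers summed to 4.65 to 40.8 TPM, with the highest value in a repeat ibrutinib library. The median of their sum was 7.02 TPM in repeat ibrutinib, 6.725 TPM in repeat DMSO, 29.6 TPM in single DMSO and 13.2 TPM in single ibrutinib. *Eomes* averaged 27.6 TPM in single DMSO and 2.45 TPM in repeat DMSO, whereas *Klrb1c* averaged 1.48 and 6.03 TPM. *Klrb1c* reached 25.2 TPM in a repeat ibrutinib library, and *Ncr1* had at most 27 counts in any library. The 4 CD4+ T cell markers summed to 2.08 to 21.4 TPM, and *Cd4* had at most 2 counts. *Zbtb7b* averaged 17.7 TPM in repeat DMSO and 2.94 TPM in single DMSO, and *Cd40lg* 1.04 and 0.086 TPM. *Foxp3* went the other way, with 0.0375 TPM in repeat DMSO and 1.79 TPM in single DMSO, and reached 8.49 TPM in a single ibrutinib library. The part of these other cells in the results was not tested.

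*Txk* (ENSMUSG00000054892) lies on chromosome 5 of the mouse genome build GRCm38 at 72695978 to 72752777, and *Tec* (ENSMUSG00000029217) at 72755716 to 72868483 of the same chromosome. Both are on the minus strand with 2938 bases between them, so that *Txk* follows *Tec* in the direction of transcription. *Btk* (ENSMUSG00000031264, 134542336 to 134583570) and *Bmx* (ENSMUSG00000031377, 164192842 to 164258193) lie on chromosome X and *Blk* (ENSMUSG00000014453, 63372836 to 63417037) on chromosome 14, all on the minus strand. All 5 are protein-coding genes. No library gave a fractional expected count for any of them, so no read was shared out between them and another gene.

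The promoter sequences of the neighbours *Txk* and *Tec*, which were both lower in repeat peptide cells, and of *Btk*, whose reads were almost all in repeat peptide cells, are printed to show how unlike they are. Each runs 5′ to 3′ from 250 bases before to 50 bases after a start site (RefSeq, GRCm38.p6, minus strand). Capitals mark matches, on either strand, of the NFAT core GGAAA, the TCF/LEF core TCAAAG and the PU-box GAGGAA, the last being a site of the ETS factor of myeloid and B cells. The NFAT core and the PU-box share letters and can overlap, but no matches overlap in these sequences.
Txk, upstream start, chr5:72752728-72753027: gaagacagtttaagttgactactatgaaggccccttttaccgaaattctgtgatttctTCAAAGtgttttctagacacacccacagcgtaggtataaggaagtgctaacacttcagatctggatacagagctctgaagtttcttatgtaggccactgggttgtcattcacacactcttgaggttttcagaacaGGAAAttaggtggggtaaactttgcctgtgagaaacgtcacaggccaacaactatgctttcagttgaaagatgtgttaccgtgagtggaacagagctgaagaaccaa
Txk, downstream start, chr5:72736553-72736852: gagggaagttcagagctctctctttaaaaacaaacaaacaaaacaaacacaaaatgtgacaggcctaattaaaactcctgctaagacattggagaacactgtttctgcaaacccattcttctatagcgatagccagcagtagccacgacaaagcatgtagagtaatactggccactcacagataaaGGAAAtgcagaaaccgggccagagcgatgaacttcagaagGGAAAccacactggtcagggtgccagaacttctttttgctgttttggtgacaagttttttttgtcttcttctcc
Tec, chr5:72868399-72868698: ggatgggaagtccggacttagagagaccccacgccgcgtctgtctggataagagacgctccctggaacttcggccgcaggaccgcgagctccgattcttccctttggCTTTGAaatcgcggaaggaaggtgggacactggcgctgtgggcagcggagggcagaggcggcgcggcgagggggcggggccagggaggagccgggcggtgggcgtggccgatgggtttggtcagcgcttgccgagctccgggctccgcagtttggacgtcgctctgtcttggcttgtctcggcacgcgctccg
Btk, chrX:134583091-134583390: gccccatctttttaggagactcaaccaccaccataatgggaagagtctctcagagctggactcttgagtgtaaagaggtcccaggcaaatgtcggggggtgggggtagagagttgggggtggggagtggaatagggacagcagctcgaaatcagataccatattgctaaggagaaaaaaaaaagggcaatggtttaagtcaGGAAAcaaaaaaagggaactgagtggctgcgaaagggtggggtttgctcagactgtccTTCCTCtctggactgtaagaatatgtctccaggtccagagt
The *Tec* promoter had 67.7% G and C and 33 CpG dinucleotides, against a median of 52.7% and 7 over 32851 promoters of the same length, and its GC share was above that of 86.8% of them. Each *Txk* start, 16175 bases apart, had 42.7% and 4 CpG, and *Btk* had 49.3% and 3. The upstream *Txk* promoter held 1 NFAT core and 1 TCF/LEF core, the downstream one 2 NFAT cores, *Tec* 1 TCF/LEF core and *Btk* 1 NFAT core and 1 PU-box. The *Bmx* promoter (44.7% G and C) held 4 NFAT cores. The AP-1 site TGANTCA was in none of them. Of all promoters, 61.3% held the NFAT core, 16.0% the TCF/LEF core, 28.3% the PU-box and 7.81% the AP-1 site. These matches are descriptions of letters and not of bound sites. *Blk* has no entry among these promoters.

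*Txk* was the most abundant of the 5 in single peptide cells. It was strongly lower after repeat peptide stimulation, and in these repeat peptide cells it was higher with ibrutinib. Its normalized read counts (counts scaled to a common library size by TMM) in repeat peptide cells with DMSO were 526.9 in experiment A, 861.9 in B, 502.4 in C and 334.1 in D. With ibrutinib the repeat peptide cells gave 1390.0 in A, 1828 in B, 957.8 in C, 846.2 in D and 1486 in E. The groups touched only where the highest DMSO library (B) stood just above the lowest ibrutinib library (D), and within each of experiments A to D the ibrutinib library was the higher one. The ratio of ibrutinib to DMSO was 2.64 in A, 2.12 in B, 1.91 in C and 2.53 in D.

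In single peptide cells the normalized read counts of *Txk* with DMSO were 4502 in A, 5013 in B, 3558 in C, 3899 in D and 5092 in F. With ibrutinib they were 3374 in A, 4989 in B, 3119 in C and 3878 in D. The single peptide groups overlapped, and each single peptide library was above each repeat peptide library. In bulk RNA, fewer cells that make a transcript and less of it per cell cannot be told apart.

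**Figure D1:**
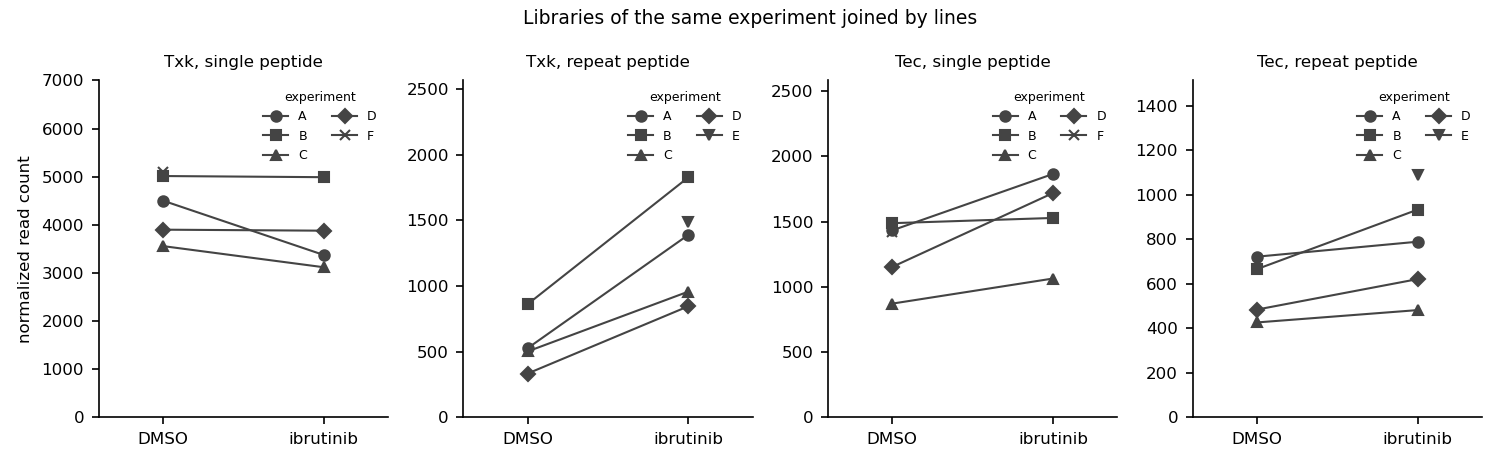
Normalized read counts (vertical axes, each from 0 with its own scale) of *Txk* and *Tec* with DMSO and with ibrutinib, in single and in repeat peptide cells. Symbols mark the experiment of each library and lines join libraries of the same experiment. The *Txk* lines rise in all 4 experiments in repeat peptide cells, from 334.1 to 861.9 with DMSO up to 846.2 to 1828 with ibrutinib, and fall or stay level in single peptide cells.

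In the edgeR quasi-likelihood fit across all tested genes, *Txk* was lower by 2.99 on the log2 scale in repeat than in single peptide cells with DMSO (log2 fold change -2.99, SE 0.266, adjusted p = 5.95e-08). With ibrutinib in both, the log2 fold change of repeat against single was -1.56 (SE 0.239, adjusted p = 4.53e-05). Ibrutinib against DMSO gave *Txk* a log2 fold change of 1.22 in repeat peptide cells (SE 0.248, adjusted p = 0.00547) and of -0.20 in single peptide cells (95% interval -0.70 to 0.30, adjusted p = 0.810). Without the repeat ibrutinib library of experiment E, which held mast cell or basophil reads, the first of these was 1.17 (adjusted p = 0.0142). Within experiments A to D, the ratio of repeat to single ranged from 0.0857 to 0.172 with DMSO and from 0.218 to 0.412 with ibrutinib.

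To be called changed, a gene had to have an adjusted p under 0.05, to average 50 or more normalized counts and to differ by over 0.2 on the log2 scale in size. Only *Txk* and *Tec* could meet this rule, since *Btk* and *Bmx* were not tested and *Blk* averaged 16.2 normalized counts. By this rule *Txk* was 1 of 5 members called in ibrutinib against DMSO in repeat peptide cells, where 5.92% of all tested genes were called and 4.01% were called higher. With ibrutinib in single peptide cells, 0 of the 5 members were called by edgeR, as against 3.04% of all tested genes. None of the 3 tested members had an unadjusted p under 0.05 there, and the DESeq2 Wald test also called 0. In repeat against single peptide cells with DMSO 2 members, *Txk* and *Tec*, were called lower, among 47% of tested genes called and 24.2% called lower. With ibrutinib the same comparison called the same 2 members, among 38.4% called and 19.6% called lower. A call between the stimulations was thus common among all genes.

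The difference between the ibrutinib effects, tested as the interaction term, was called for 1 of the 5 members, *Txk*, where 1.26% of tested genes were called. The effect in repeat peptide cells exceeded that in single peptide cells by 1.42 on the log2 scale (SE 0.344, 95% interval 0.70 to 2.14, adjusted p = 0.0464). This call lies close to the threshold. It stood in the fits without the library of experiment B in repeat DMSO, of C or of D in repeat ibrutinib, of C in single DMSO or of B in single ibrutinib. It was lost when any of the other 13 libraries was left out, with adjusted p up to 0.113 and log2 differences of 1.27 to 1.74 over all 18 such fits. With the experiment as a block the adjusted p was 0.00145.

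**Figure D2:**
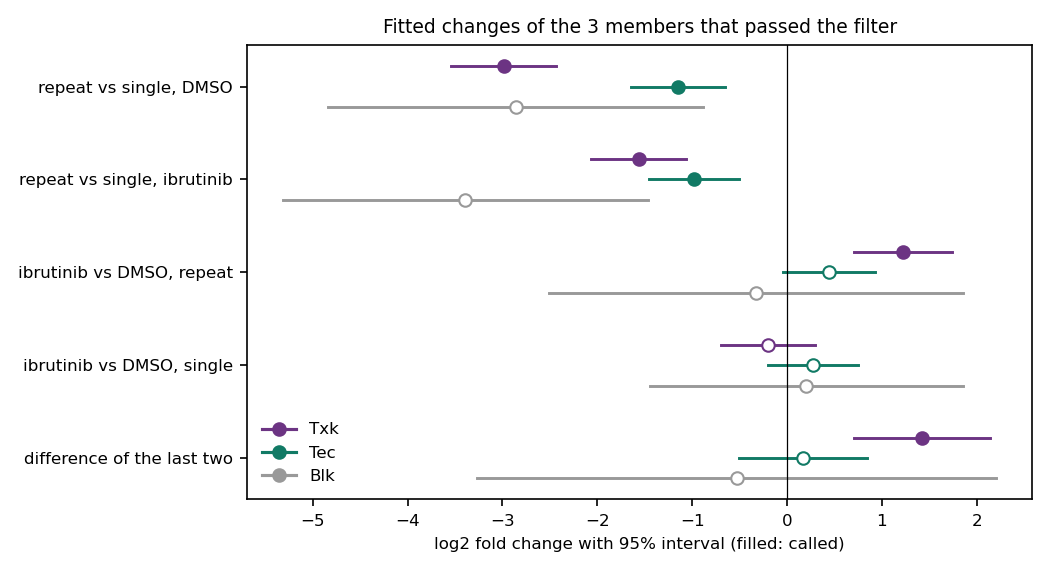
Log2 fold changes from the edgeR fit (horizontal axis) with 95% intervals for *Txk*, *Tec* and *Blk* in the 4 comparisons and in the difference between both ibrutinib effects. Filled points were called. *Txk* is called in 4 of the 5 rows, *Tec* only in repeat against single, and the intervals of *Blk* are the widest.

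*Tec* was lower in repeat than in single peptide cells, by less than *Txk*, and its counts with and without ibrutinib overlapped in both stimulations. In repeat peptide cells with DMSO its normalized read counts were 722.3 in A, 666.4 in B, 426.8 in C and 484.6 in D. With ibrutinib they were 789.6 in A, 933.9 in B, 482.3 in C, 621.6 in D and 1090.0 in E. The ibrutinib library was the higher one in each of experiments A to D, by ratios of 1.09 to 1.401, which lie below the ratios of *Txk* in the same experiments.

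In single peptide cells *Tec* stood at 1433 in A, 1488 in B, 871.8 in C, 1153 in D and 1420 in F with DMSO. With ibrutinib it stood at 1865 in A, 1528 in B, 1064 in C and 1719 in D. The ibrutinib library was again the higher one in each of experiments A to D, by ratios of 1.03 to 1.49. Experiment C gave the lowest count in all 4 groups.

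The log2 fold change of *Tec* in repeat against single peptide cells was -1.15 with DMSO (SE 0.235, adjusted p = 0.00049) and -0.98 with ibrutinib (SE 0.227, adjusted p = 0.00202). The ratio of repeat to single within experiments A to D was 0.420 to 0.504 with DMSO and 0.361 to 0.611 with ibrutinib. Ibrutinib against DMSO gave 0.45 in repeat peptide cells (95% interval -0.04 to 0.93, adjusted p = 0.272) and 0.28 in single peptide cells (95% interval -0.20 to 0.75, adjusted p = 0.683), and neither passed. With the experiment as a block these were 0.29 (adjusted p = 0.0837) and 0.33 (adjusted p = 0.0602). The value of 0.45 fell to 0.30 without the library of experiment E in repeat ibrutinib, and that of 0.28 to 0.17 without the library of C in single DMSO and to 0.16 without that of A in single ibrutinib. The difference between these effects was 0.17 (95% interval -0.51 to 0.85, adjusted p = 0.926), and it turned to -0.0411 with the experiment as a block. Whether the ibrutinib effect differs between *Txk* and *Tec* was not tested.

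The ratio of *Txk* to *Tec* did not overlap between repeat and single peptide cells with DMSO. Per transcript length, *Txk* averaged 75.7 ± 17.0 TPM (SD, n = 5) and *Tec* 25.3 ± 7.44 TPM in single peptide cells with DMSO. In repeat peptide cells with DMSO they averaged 10.9 ± 4.00 and 11.3 ± 2.64 TPM (SD, n = 4). The ratio of *Txk* to *Tec* TPM in a library was 2.63 to 3.62 in single peptide cells with DMSO and 1.64 to 2.84 with ibrutinib. In repeat peptide cells it was 0.69 to 1.27 with DMSO and 1.27 to 1.77 with ibrutinib. *Txk* was above *Tec* in 16 of 18 libraries, the exceptions being the repeat DMSO libraries of experiments A and D. *Btk*, *Bmx* and *Blk* together made up 0.0541% to 2.19% of the summed TPM of the 5 kinases in a library, and that sum averaged 22.6 ± 6.01 TPM in repeat peptide cells with DMSO against 101.5 ± 24.6 TPM in single peptide cells with DMSO.

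**Figure D3:**
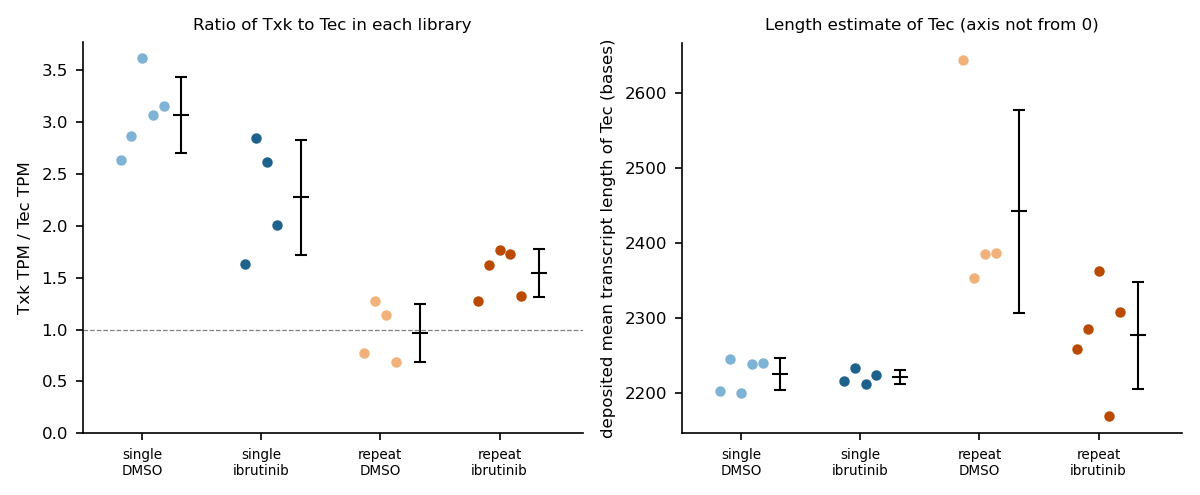
Left, the ratio of *Txk* to *Tec* TPM in each library, with the dashed line at equal levels. Right, the deposited mean transcript length of *Tec* in bases, on an axis that does not start at 0. Points are libraries and bars are mean ± SD. The ratio is lowest, 0.69 to 1.27, and the length highest, 2354 to 2644 bases, in repeat peptide cells with DMSO.

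The order of the groups by mean normalized count differed between both genes. *Txk* ran from single DMSO (4413 ± 675.1) to single ibrutinib (3840.0 ± 828.3), repeat ibrutinib (1302 ± 401.4) and repeat DMSO (556.3 ± 221.0), and of these neighbours only single ibrutinib and repeat ibrutinib did not overlap. *Tec* ran from single ibrutinib (1544 ± 348.7) to single DMSO (1273 ± 259.3), repeat ibrutinib (783.5 ± 241.7) and repeat DMSO (575.0 ± 141.7), and each pair of neighbours overlapped. SDs are over 4 libraries in single ibrutinib and repeat DMSO and over 5 in the other groups.

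**Figure D4:**
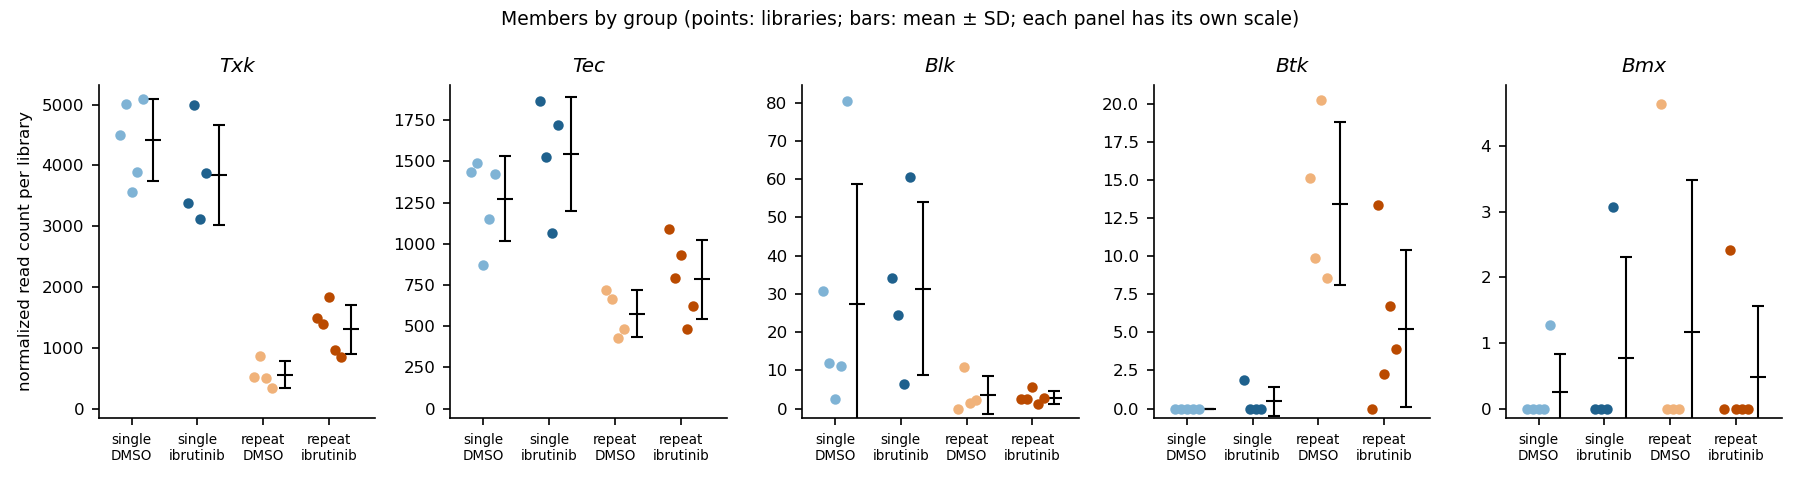
Normalized read counts (vertical axes, a scale for each gene) of the 5 kinases in the 4 groups. Points are libraries and bars are mean ± SD, cut at the axis where they would run below 0. *Txk*, *Tec* and *Blk* are higher in single peptide cells, *Btk* is read almost only in repeat peptide cells, and *Bmx* stays under 5 in every library.

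The deposited tables also give each gene a mean transcript length, weighted by the estimated share of its isoforms, which moves only when that mix moves. For *Tec*, of which 9 transcripts are listed, it lay between 2201 and 2246 bases in all 5 single DMSO libraries and between 2213 and 2233 bases in all 4 single ibrutinib libraries. In repeat peptide cells with DMSO it was 2644 in A, 2354 in B, 2385 in C and 2387 in D, above every single peptide library. With ibrutinib the repeat peptide libraries gave 2286 in A, 2363 in B, 2171 in C, 2308 in D and 2259 in E, between and across the others.

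The full-length coding transcripts of *Tec* span 2573 to 2659 bases in 18 or 19 exons, whereas a transcript marked for nonsense-mediated decay that lacks the upstream part of the gene, Tec-208, has 2117. Tec-206, Tec-207 and Tec-209 are shorter still, at 1561, 621 and 377 bases. Which transcripts moved the mean was not tested. The mean length in repeat peptide cells exceeded that in single peptide cells by 216.5 bases with DMSO, with a two-sided exact permutation p of 0.0159, the smallest that 4 against 5 libraries allow. Ibrutinib against DMSO in repeat peptide cells gave a difference of -165.0 bases (exact p = 0.0317). Over the 8 tests of *Txk* and *Tec* lengths both adjust to 0.127, so none of the 8 passed 0.05. Without the library of experiment A in repeat DMSO these differences were 149.5 and -98.0 bases. The mean length of *Txk*, of which 8 transcripts are listed, ranged from 2370 to 2580 bases over the 18 libraries, and its groups overlapped in all 4 comparisons (exact p from 0.190 to 0.889).

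*Blk* was read at low counts, lower in repeat peptide cells. In single peptide cells with DMSO its expected counts were 27 in A, 11 in B, 2 in C, 12 in D and 63 in F, and with ibrutinib 36 in A, 26 in B, 7 in C and 59 in D. In repeat peptide cells they were 0 in A, 11 in B, 2 in C and 2 in D with DMSO, and 2 in A, 5 in B, 1 in C, 5 in D and 2 in E with ibrutinib. Experiment C stood at the low end in single peptide cells. With DMSO the stimulations overlapped, and experiment B had 11 counts and experiment C 2 counts in both.

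The log2 fold change of *Blk* in repeat against single peptide cells was -2.86 with DMSO (SE 0.944, adjusted p = 0.0160) and -3.39 with ibrutinib (SE 0.917, adjusted p = 0.00608). With a mean normalized count of 16.2 it stayed under the minimum of 50 and was not called. With DMSO the adjusted p rose above 0.05 in some alternatives, to 0.0845 at most. Among these were the fits without the library of experiment F in single DMSO (0.0785, log2 fold change -1.92) and without that of C in repeat DMSO (0.0535). With the experiment as a block it was 0.0555 (log2 fold change -1.83). Without the library of B in repeat DMSO the log2 fold change was -4.30. Ibrutinib against DMSO gave *Blk* a log2 fold change of -0.33 in repeat peptide cells (95% interval -2.51 to 1.86) and of 0.20 in single peptide cells (95% interval -1.45 to 1.85), intervals too wide to show a difference at this depth. In single DMSO libraries the TPM of *Blk* and of the summed B cell markers were 0.61 and 3.55 in A, 0.22 and 5.21 in B, 0.04 and 7.10 in C, 0.16 and 3.87 in D and 1.47 and 3.21 in F. With ibrutinib the single peptide libraries gave 0.63 and 5.90 in A, 0.46 and 5.64 in B, 0.09 and 5.20 in C and 0.87 and 4.34 in D. In single DMSO the sum came mostly from *Cd79b* (mean 4.40 TPM). The part of B cells in the *Blk* reads was not tested.

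*Btk*, the kinase ibrutinib was made against, was read in repeat peptide cells and hardly at all in single peptide cells. Its expected counts in repeat peptide cells with DMSO were 13 in A, 10 in B, 27 in C and 8 in D. With ibrutinib they were 11 in A, 2 in B, 6 in C, 7 in D and 0 in E. All 5 single DMSO libraries were at 0, and of the 4 single ibrutinib libraries only that of A had reads, 2 in number. Thus the libraries of experiments B, C and D, whose genotype entry names a btk knockout, held *Btk* reads in repeat peptide cells.

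With a floor of 3 counts set for each single DMSO library, all at 0, the mean normalized count of 13.4 in repeat peptide cells with DMSO was 3.93 times that floor. This figure leaves out the spread of the repeat DMSO libraries, 8.54 to 20.2. On log2(CPM + 0.5), where CPM is the count scaled by library size, the two-sided exact permutation p was 0.0159, again the smallest possible, and 0.127 after adjustment over the 8 tests of *Btk* and *Bmx*. Fitted with all genes and no filter on low counts, the same comparison gave *Btk* an adjusted p of 0.000753 in edgeR and of 3.19e-05 in DESeq2, with a mean count far under 50. With ibrutinib in both stimulations the exact p was 0.0794 (adjusted 0.212), and the adjusted p was 0.0712 in edgeR without the filter and 0.0386 in DESeq2. Ibrutinib against DMSO in repeat peptide cells gave normalized counts of 0 to 13.3 against 8.54 to 20.2, which overlap, with an exact p of 0.0635 (adjusted 0.212). Within experiments the ibrutinib library was the lower one in 4 of 4, at 13.3 against 15.1 in A, 2.27 against 9.87 in B, 6.71 against 20.2 in C and 3.90 against 8.54 in D, a pairing this test does not use.

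The deposited length of *Btk* was 2540 bases, that of the coding transcript Btk-201, in 3 of the 4 repeat DMSO libraries. It was 1920 bases, that of the retained-intron transcript Btk-204, in both repeat peptide libraries of experiment A and in the ibrutinib library of D. With so few reads, these are assignments of a handful of fragments. The B cell markers summed to 2.77 to 4.37 TPM and the myeloid markers to 2.75 to 6.05 TPM in the repeat DMSO libraries, against 3.21 to 7.10 and 1.3 to 9.59 TPM in the single DMSO libraries where *Btk* was at 0. Within the B cell list, *Ebf1* averaged 0.633 TPM in repeat DMSO and 0.0520 TPM in single DMSO, *Cd22* 1.26 and 0.0720 TPM, and *Cd79b* 1.74 and 4.40 TPM, while *Cd79a* was at 0 in all repeat DMSO libraries. Within the myeloid list, *Cd68* averaged 3.37 TPM in repeat DMSO and 1.73 TPM in single DMSO. The myeloid sum of 9.59 TPM was that of experiment A, where *Lyz2* reached 5.92 TPM, and the other 4 single DMSO libraries had 1.3 to 2.75 TPM, at or below every repeat DMSO library. *Csf1r* and *Adgre1* were at 0 in both groups. The part of other cells in the *Btk* reads was not tested.

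*Bmx* was at or near 0 throughout. It had 4 counts in the repeat DMSO library and 2 in the repeat ibrutinib library of experiment A, 1 in the single DMSO library of F and 3 in the single ibrutinib library of D. The other 14 libraries were at 0, which allows up to 3 counts in each, so no difference between groups was detectable at this depth (exact p 0.889 in all 4 comparisons).

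Genes that work beside the Tec kinases were described in 5 lists. In repeat against single peptide cells with DMSO, 47% of all tested genes were called, 22.8% higher and 24.2% lower. Of 14 scaffolds, adaptors and related proteins that act near the receptor, 10 were lower and 3 higher in that comparison. Their median log2 fold change was -0.40 against -0.0022 for all tested genes. *Grap2* (GADS, which joins the LAT scaffold to SLP-76) fell by 1.77 on the log2 scale, *Nck2* by 1.37 and *Fyb* by 1.12. *Sla* (SLAP, an adaptor that dampens receptor signalling) rose by 0.82 and *Sh2d2a* (TSAd, an adaptor known to bind TXK) by 0.46. With ibrutinib in repeat peptide cells, where 4.01% of tested genes were called higher and 1.92% lower, 4 of the 14 rose and 2 fell, with a median of 0.27 against 0.0045. *Grap2* (0.73, adjusted p = 0.00187), *Nck2* (0.55) and *Fyb* (0.44) rose, and *Sla* (-0.79, adjusted p = 0.000174) and *Sh2d2a* (-0.45) fell.

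Of 19 targets downstream of the Tec kinases, 11 were lower and 5 higher in repeat than in single peptide cells with DMSO (median -0.47). *Rasgrp2*, an exchange factor that answers to calcium and diacylglycerol, fell by 2.15 on the log2 scale, and *Itpr2* and *Itpr3*, IP3 receptors that release calcium, fell by 1.32 and 1.19. *Egr3*, a transcription factor induced through NFAT, rose by 3.24 (adjusted p = 2.50e-08). With ibrutinib in repeat peptide cells 5 of the 19 rose and 0 fell (median 0.17). *Rasgrp2* rose by 1.05 (adjusted p = 0.00135), *Itpr3* by 0.62 and *Itpr2* by 0.49, while *Egr3* stood at -0.75 (adjusted p = 0.0822). *Rasgrp2* was the gene of this list with a called difference between the ibrutinib effects, 1.04 higher in repeat peptide cells (adjusted p = 0.0419).

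The list of upstream kinases, phosphatases and their regulators gave 5 lower and 3 higher of 12 in repeat against single peptide cells with DMSO, with a median of -0.22. *Pag1*, the anchor of the inhibitory kinase CSK, fell by 1.83 and *Ubash3a*, a phosphatase of T cells, by 0.28, whereas the phosphatase *Ptpn6* (SHP-1) and the ubiquitin ligase *Cblb*, brakes on receptor signalling, rose by 0.87 and 1.15. With ibrutinib in repeat peptide cells only *Ptpn6* was called, at -0.48 (adjusted p = 0.00705), and *Ptpn6* also fell by 0.68 with ibrutinib in single peptide cells (adjusted p = 0.00185). A list of 10 genes held enzymes that make, remove or respond to PIP3, regulatory subunits included. PIP3 is the lipid bound by the PH domain that TXK lacks. Of these genes, 2 were lower and 2 higher in repeat against single with DMSO (median 0.0011). *Pik3r5*, a regulatory subunit of PI3K gamma, fell by 1.38 there and rose by 0.73 with ibrutinib in repeat peptide cells (adjusted p = 0.0348). *Inppl1* (SHIP-2, a PIP3 phosphatase) was higher by 1.89 and *Pik3cg*, the catalytic subunit of PI3K gamma, by 0.71, and with ibrutinib in repeat peptide cells they stood at -0.53 (adjusted p = 0.204) and -0.24 without passing.

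Of the 8 Src family kinases, to which *Blk* belongs, 2 were lower and 1 higher in repeat against single peptide cells with DMSO. *Lck*, the kinase that activates Tec kinases in T cells, averaged 505.4 ± 11.0 TPM in repeat DMSO and 607.5 ± 74.4 TPM in single DMSO (log2 fold change -0.31, adjusted p = 0.0265), far above the 0.0650 and 0.500 TPM of *Blk*. *Fyn* fell by 0.44. *Lyn*, known from B and myeloid cells, rose by 3.67 on the log2 scale, from 0.298 ± 0.127 TPM to 4.29 ± 1.18 TPM, and with ibrutinib in repeat peptide cells it fell by 1.04 (adjusted p = 0.0497). These list counts are descriptions beside the background and no list was tested as a set.

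**Figure D5:**
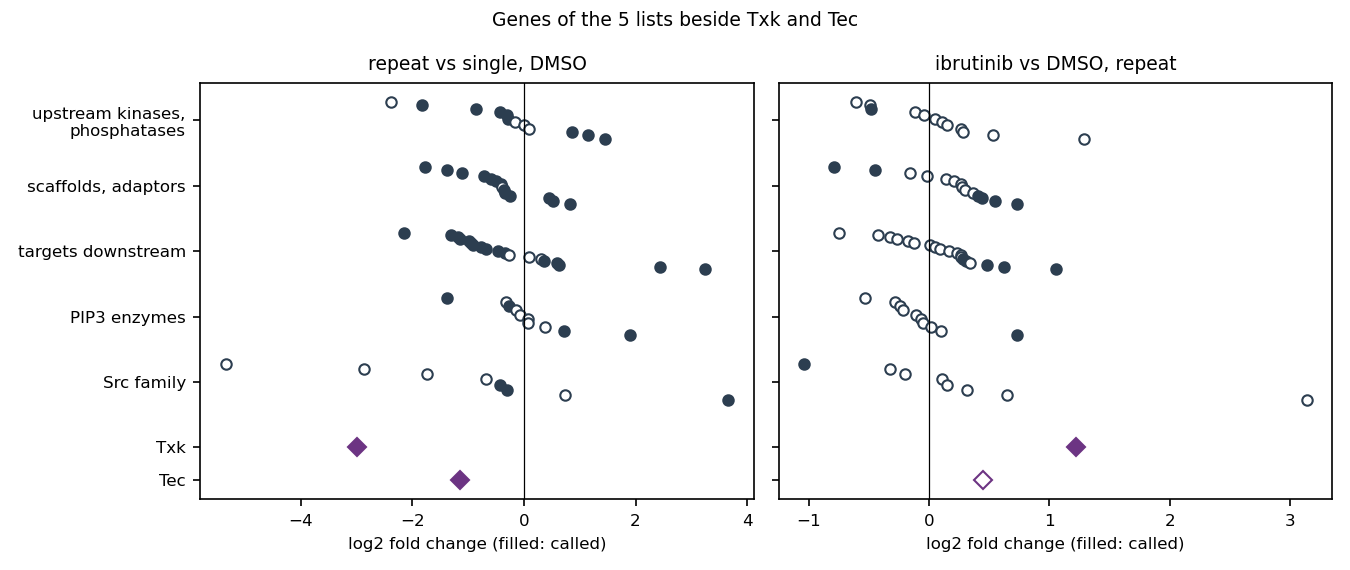
Log2 fold changes (horizontal axes) of each gene of the 5 lists, beside *Txk* and *Tec* (diamonds), in repeat against single peptide cells with DMSO (left) and in ibrutinib against DMSO in repeat peptide cells (right). Each point is a gene, spread vertically by rank, and filled points were called. *Txk* at -2.99 lies below all called genes of the lists on the left, and at 1.22 above all called genes on the right.

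Over the 18 libraries the genes whose log2 CPM followed *Txk* most closely were *Sidt1* (Pearson r = 0.988), *Slc17a9* (0.984), *Asb13* (0.983), *Rasgrp2* (0.983) and *Fgf13* (0.982). For *Tec* they were *1110002L01Rik* (0.968), *Otulinl* (0.968), *Rnf167* (0.961), *Zfp595* (0.958) and *Nlk* (0.953). *Txk* and *Tec* correlated at 0.888, and at 0.663 once each group's mean was taken off. For *Blk*, genes among the closest were *0610037L13Rik* (0.932), *Hlf* (0.913), *Ptpre* (0.903) and *Cited4* (0.903). The libraries share the stimulation, the treatment and the experiment, so these values describe likeness in this set of libraries and carry no test.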

How the data were processed

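RNA-seq of 18 libraries of mouse CD8+ T cells in 4 groups was used. Groups came from the titles and the condition and treatment entries of the labels, and experiments from the genotype entry. The authors trimmed the reads with Trim Galore, ran RSEM 1.3.1 with STAR on GRCm38 and an Ensembl gene set, and deposited 1 table per library. The expected counts deposited by the authors estimate how many reads fall on each gene. Its TPM values, deposited by the authors, are scaled for transcript length and to a common total, and were used for levels between genes. The deposited lengths are the authors' mean isoform lengths in bases. The FPKM values that the authors deposited were not used.

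Expected counts were rounded. Of 45706 genes listed, 45143 matched GENCODE M21 of GRCm38 by identifier and 27903 were protein-coding or lncRNA genes. The 12255 genes that passed filterByExpr entered glmQLFit (robust) and glmQLFTest of edgeR 4.0.16 (R 4.3.3) with TMM factors, all groups in a single fit, and with Benjamini-Hochberg adjustment over all tested genes. Thresholds were those of the study: adjusted p under 0.05, mean normalized count of at least 50, absolute log2 fold change above 0.2. *Btk*, *Bmx* and the lengths were compared by two-sided exact permutation tests over libraries (scipy 1.17.1). The lengths were tested for genes with at least 50 counts in every library. The code was tested on simulated data.

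The members and gene lists were chosen with earlier results of these data known. The named genes are the 5 members, the 3 genes of each list with the smallest p in repeat against single with DMSO and in ibrutinib against DMSO in repeat peptide cells, and for each tested member the 5 genes with the highest Pearson r of log2 CPM (prior count 2). *Ebf1*, *Pecam1*, *Kit* and other marker genes are named from the lists of cell types.

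Totals of 23445922 to 51995372 expected counts per library leave counting error small for *Txk* and *Tec* and large for the other members. Floors cover counting error only, and the intervals of fold changes come from the spread between libraries. No label says that libraries of a group came from separate mice, so p-values measure the spread between these cultures. Deviations from the group means correlated at 0.16 to 0.494 in all 24 pairs that share an experiment but not a group (median 0.325) and had a median of -0.0765 in the 97 other pairs, so the experiments pair the libraries, by the genotype entry of the labels. A blocked fit by experiment is an alternative, since the study names no block. Other alternatives were DESeq2 size factors, no filter, no mean count threshold, a fold threshold of 1, a length offset, all gene types, only the compared groups, the DESeq2 1.42.0 Wald test, each library left out, other pseudocounts (0.1 in place of 0.5) and a count minimum of 20 for lengths. Promoters came from RefSeq (GRCm38.p6), with 4 of the 5 members matched. A few single genes were left out of the text and are not reported here.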

Additional observations from a re-analysis of the deposited data

Results flagged for a closer look

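The deposited mean length of *Tec* in the repeat peptide DMSO library of experiment A, 2644 bases, stood far from the other 3 libraries of its group (2354 to 2387 bases). *Bmx* in the same library had a normalized count of 4.65 where the others of its group were at 0. The *Tec* gap exceeded Dixon's critical value at the 95% level, which by its definition chance passes in about 1 of 20 groups of normal values. For *Bmx* the same excess carries no weight, since any reads in 1 library beside others at 0 exceed that value. The difference between the ibrutinib effects on *Txk* in repeat and in single peptide cells was 1.42 on the log2 scale, with ibrutinib libraries higher in 4 of 4 experiments in repeat peptide cells and lower in 4 of 4 in single peptide cells, where 2 of the ratios, 0.995 in B and 0.995 in D, lay close to 1.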

How the results depend on the processing

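The rise of *Txk* with ibrutinib in repeat peptide cells stayed called under all 28 alternatives, with log2 fold changes of 1.05 to 1.53 and adjusted p of 3.80e-05 to 0.0327. The lower *Txk* and *Tec* in repeat peptide cells stayed called under all alternatives, with 1 exception: with an absolute log2 fold change above 1 required, *Tec* with ibrutinib (-0.98) was lost, which left 1 member called. The difference between ibrutinib effects was called for 1 member, and for 0 without the filter on low counts (*Txk* adjusted p = 0.0835) and for 0 in experiments A to D only (log2 difference 1.32, adjusted p = 0.0960), an alternative chosen after seeing the data. Leaving out a library each gave 0 to 1. Without a threshold on the mean count, *Blk* joined them, 3 members in all, in repeat against single. The experiment as a replicate block changed no member's call. It turned the *Tec* difference of ibrutinib effects to -0.0411, and experiments A to D alone turned it to -0.0213. Leaving out single libraries reversed the sign of results that passed no test. *Blk* ranged from -0.70 to 1.13 for ibrutinib in repeat peptide cells, from -0.34 to 1.14 in single peptide cells and from -1.47 to 0.94 for the difference. *Bmx* on log2(CPM + 0.5) ranged from -0.0995 to 0.0442 and from -0.0241 to 0.0689 for ibrutinib in repeat and in single peptide cells, and from -0.0241 to 0.109 and from -0.0689 to 0.0442 for repeat against single with DMSO and with ibrutinib. The *Txk* length ranged from -21.3 to 36.3 bases for ibrutinib in repeat peptide cells and from -37.6 to 13.8 for repeat against single with ibrutinib, and the *Tec* length from -10.1 to 1.12 for ibrutinib in single peptide cells. The causes were not tested. *Btk*, *Bmx* and the lengths passed 0.05 after adjustment in 0 of 8 exact tests each, under every alternative to those tests, and a lone smallest p of 0.0159 among 8 cannot pass. Depth limits *Btk*, *Bmx* and *Blk*.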

Other observations

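Both repeat peptide libraries of experiment A were alike in the rarest members. They held the *Bmx* reads of repeat peptide cells (4 and 2 counts), and their *Btk* reads (13 and 11) were assigned to the retained-intron transcript of 1920 bases, as were the 7 reads of the repeat ibrutinib library of experiment D.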
